A study of Mus musculus with 30 samples.

Results

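The comparison described here is TREM1 knockout (KO) against wild-type (WT) macrophages sorted from the ischemic hemisphere of the mouse brain after experimental stroke. Its members are 9 of the 30 arrays of the series, chosen by sample title: 6 arrays of KO macrophages and 3 of WT macrophages. All were male C57BL/6 mice aged 8 to 10 weeks, either TREM1-/- (KO) or TREM1+/+ (WT). Every animal, in both groups, had the middle cerebral artery occluded for 45 min, and cells were taken 48 h after reperfusion, on day 2. Mice were perfused through the heart, the hemisphere was passed through a 70 µm strainer and myelin was removed. Macrophages were the CD45 high, CD11b positive, Ly6G negative cells. The other arrays of the series held neutrophils (4 WT and 5 KO) and microglia (6 WT and 6 KO) from the same kind of preparation and are used below only where the macrophage values are set against them. The labels give the microglia gate as CD45 low, CD11b positive and Ly6G positive, and neutrophil markers had a list mean of 6.16 to 8.78 in the microglia arrays, against 11.61 to 14.51 in the neutrophil arrays. No array of an uninjured brain was analysed here, so every value describes cells after stroke. The labels call the arrays biological replicates but do not say how many animals each one holds, whether the KO and WT mice were littermates, or which part of the gene was removed. The p-values below therefore measure the spread between these arrays.

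TREM1 is a receptor of the immunoglobulin superfamily on neutrophils, monocytes and macrophages. It has no signalling tail of its own and pairs with the adaptor TYROBP (DAP12), whose immunoreceptor tyrosine-based activation motif (ITAM) recruits the kinase SYK, which leads through CARD9 and related proteins to NF-kB and MAP kinases. It is known for amplifying the response of myeloid cells to Toll-like receptor ligands, with more cytokine and chemokine output. Macrophages that enter the injured brain arise mostly from CCR2 positive blood monocytes, and they both produce inflammatory mediators and clear debris.

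Values are log2 intensities, so a difference of 1 is a 2-fold change, and differences are KO minus WT with the standard error (SE) of a linear model over all 30 arrays. Genes were called as passed where limma gave a p below 0.05 after Benjamini-Hochberg adjustment over all clusters. Median intensities were 83.7 to 86.0 in the WT and 85.1 to 91.1 in the KO macrophage arrays, and 19.7% to 21.2% of all signal came from the 100 brightest clusters. The 6 KO arrays resembled each other more than the WT arrays did: each KO array had a mean correlation of 0.986 to 0.988 with the other KO arrays, against 0.980 to 0.984 among the WT arrays. Each WT array had a higher mean correlation with the KO arrays (0.981 to 0.988) than with the other WT arrays. Each KO array had a lower mean correlation with the WT arrays (0.982 to 0.986) than with the other KO arrays. WT arrays 1 and 2 stood apart from the rest, array 1 on the first principal component of the 9 arrays (21.6% of the variance) and array 2 on the second (17.6%).

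The label was checked against marker genes. The 18 measured markers of monocyte-derived macrophages had a mean of 14.69 to 15.07 over all 9 arrays. Ccr2, the receptor that brings monocytes into tissue, lay between 14.66 and 15.93 in macrophages, against 7.52 to 11.70 in neutrophils and 4.40 to 8.52 in microglia. S100a9, a subunit of calprotectin that fills the neutrophil cytosol, lay between 6.77 and 9.92 in macrophages and between 16.54 and 17.94 in neutrophils. Sall1, a transcription factor of microglia, lay between 4.95 and 5.67 in macrophages and between 11.06 and 12.49 in microglia. Over whole lists, 20 neutrophil markers had a mean of 7.19 to 8.42 in macrophage arrays and 11.61 to 14.51 in neutrophil arrays, and 17 homeostatic microglia markers a mean of 8.65 to 9.63 in macrophage and 13.22 to 14.37 in microglia arrays. Single neutrophil genes were bright in macrophages too: Mmp8, neutrophil collagenase, was at 12.31 or more in every macrophage array. As these are bulk samples, fewer cells of a type and less RNA per cell cannot be told apart.

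The targeted gene came first. In the WT arrays Trem1 was at 14.11, 14.19 and 13.59, and in the KO arrays at 13.30, 12.81, 13.45, 14.39, 13.24 and 13.65. KO array 4 was above all 3 WT arrays and KO array 6 was above WT array 3, so the groups overlapped. The difference was -0.49 ± 0.44 (SE), with a 95% interval of -1.38 to 0.40, an adjusted p of 0.998 and an exact two-sided permutation p of 0.214 over the 84 splits of the 9 arrays, whose smallest possible value is 0.0238. In neutrophils Trem1 was 17.20 ± 0.29 (SD, n = 4) in WT and 15.98 ± 0.51 (SD, n = 5) in KO, and in microglia 9.60 ± 1.02 (SD, n = 6) and 8.35 ± 0.68 (SD, n = 6). The difference in neutrophils, -1.22, passed (limma, adjusted p = 0.0361). That in microglia, -1.25, did not (adjusted p = 0.9999). Signal for Trem1 was therefore present in the macrophage arrays labelled knockout at close to the WT level. A probe set outside the deleted part of a gene checks nothing, and the part deleted here was not stated, so these values neither bear out nor contradict the genotype label.

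The 250 bases before the annotated start of Trem1 are shown with those of Grap2, the single gene that passed, and of Cytl1, the gene with the most positive difference, since the results turn on these 3. The sequences are from RefSeq on GRCm38.p6, each on the plus strand and written 5′ to 3′: chr17:48232489-48232738 for Trem1, chr15:80623233-80623482 for Grap2 and chr5:37735269-37735518 for Cytl1. Capitals mark matches on either strand to 4 motifs: the TATA box TATAAA, the core GAGGAA bound by the myeloid factor PU.1, the AP-1 site TGANTCA and the SOX core ACAAAG.
Trem1: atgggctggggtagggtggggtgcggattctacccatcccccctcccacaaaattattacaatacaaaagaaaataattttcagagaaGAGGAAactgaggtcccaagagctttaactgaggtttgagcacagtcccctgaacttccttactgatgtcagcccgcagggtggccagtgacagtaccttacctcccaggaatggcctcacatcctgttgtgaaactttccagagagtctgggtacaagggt
Grap2: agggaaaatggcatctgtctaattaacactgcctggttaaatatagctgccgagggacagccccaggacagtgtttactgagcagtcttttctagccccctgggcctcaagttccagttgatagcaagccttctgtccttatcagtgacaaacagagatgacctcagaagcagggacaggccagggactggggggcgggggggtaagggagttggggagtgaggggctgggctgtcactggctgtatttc
Cytl1: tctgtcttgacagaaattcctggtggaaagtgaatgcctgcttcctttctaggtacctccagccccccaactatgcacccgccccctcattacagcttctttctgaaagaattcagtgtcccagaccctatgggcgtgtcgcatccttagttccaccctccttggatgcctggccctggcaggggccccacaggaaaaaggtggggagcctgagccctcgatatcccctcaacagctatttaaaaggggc
Trem1 held 1 match to GAGGAA, and Grap2 and Cytl1 held no match to any of the 4 motifs. Among 27025 promoters of the same length, 12.97% held TATAAA, 23.1% GAGGAA, 6.87% TGANTCA and 16.5% ACAAAG. These matches are a description of the letters in this window.

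None of the relatives and partners of TREM1 passed. Trem2, a receptor for lipids and debris on phagocytes, was at 12.13, 12.50 and 12.95 in WT arrays and between 12.57 and 13.47 in KO arrays, and the difference was 0.37 ± 0.36. Trem3, a neighbouring activating receptor, was at 12.14, 12.03 and 11.71 in WT and between 11.13 and 12.09 in KO arrays, with a difference of -0.38 ± 0.38. Tyrobp, the shared adaptor, was at 16.48, 16.52 and 16.39 in WT and between 16.25 and 16.65 in KO arrays, a difference of -0.09 ± 0.13. For each of these 3 genes the groups overlapped. Of the 18 measured members of the receptor complex and ITAM pathway, 9 were higher and 9 lower in KO, none passed, and the median difference was 0.01, beside 0.03 over all 22103 clusters. Their differences ran from -0.49 for Trem1 itself to 0.35 for Btk, a tyrosine kinase downstream of SYK. In the list of TREM family genes and proposed ligands, 9 of 12 were lower, none passed, and the lowest was Cirbp, a cold-inducible RNA-binding protein that can be released as a danger signal. Cirbp was at 7.10, 8.19 and 7.17 in WT and between 5.84 and 6.45 in KO arrays, without overlap, a difference of -1.35 ± 0.45 (adjusted p = 0.900). Of the 20 measured genes nearest to Trem1 on chromosome 17, 10 on each side, 12 were higher and 8 lower, with a median of 0.02 and a range of -0.46 to 0.54, and none passed.

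**Figure D1:**
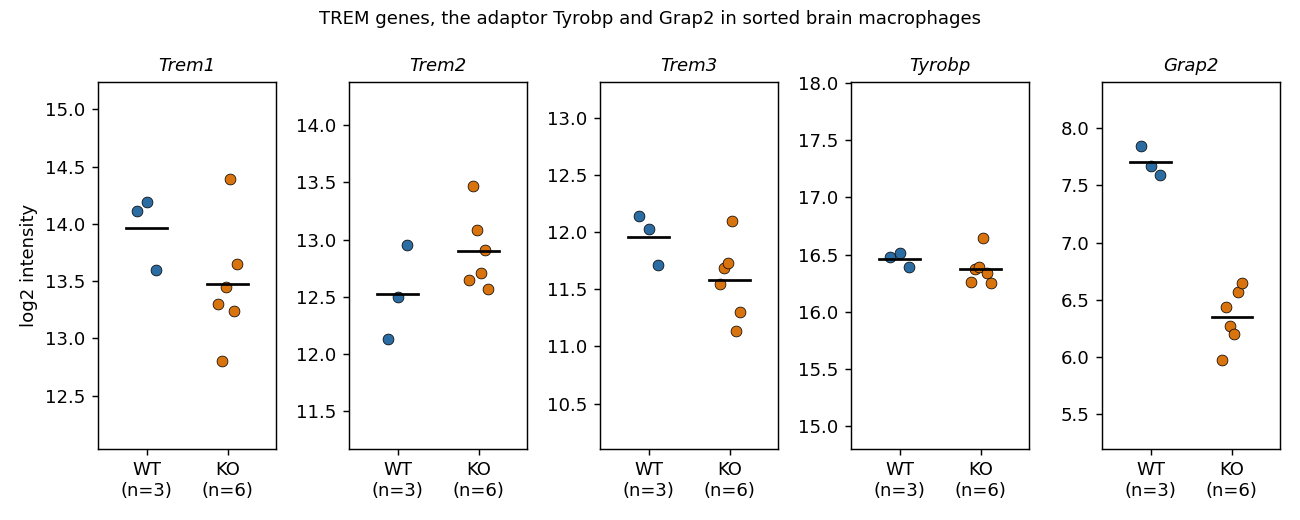
Log2 intensity of Trem1, Trem2, Trem3, Tyrobp and Grap2 in each macrophage array, WT (3, blue) and KO (6, orange), with black lines at the group means and panels of equal height on the log2 scale. The groups overlap for Trem1, Trem2, Trem3 and Tyrobp, while all 6 KO arrays lie below the lowest WT array (7.59) for Grap2.

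Across the whole array, differences between the 2 genotypes were mostly small. Of 22103 clusters 1 passed, Grap2, which is 0.00452% of those tested. It was lower in KO (again 0.00452% in that direction), and the share that passed as higher was 0%. At an unadjusted p under 0.05 there were 1029 clusters, 4.66%, where 5.0% is the share that such a threshold gives by itself. Of these 625 were higher and 404 lower in KO. The second smallest adjusted p was 0.213. The count that passed was 0 without WT array 1 and 9 without WT array 3, 5 of them higher and 4 lower. All 6 KO arrays lay above all 3 WT arrays for 416 clusters (1.88%) and below them for 230 (1.04%). The middle of the differences was narrow: the median absolute difference was 0.16, smaller than the median SE of 0.24, and the first and the ninety-ninth percentile were -0.75 and 0.71. A change of 2-fold or more was measured for 77 clusters higher and 62 lower in KO. For 83.1% of clusters the 95% interval lay inside a 2-fold change in either direction, and for 73.2% of the 10604 clusters in which at least 1 macrophage group reached 6.69, the median level of a cluster on these arrays. The same measure in neutrophils gave a median absolute difference of 0.33, with 2299 clusters past 2-fold, and in microglia 0.12, with 23.

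**Figure D2:**
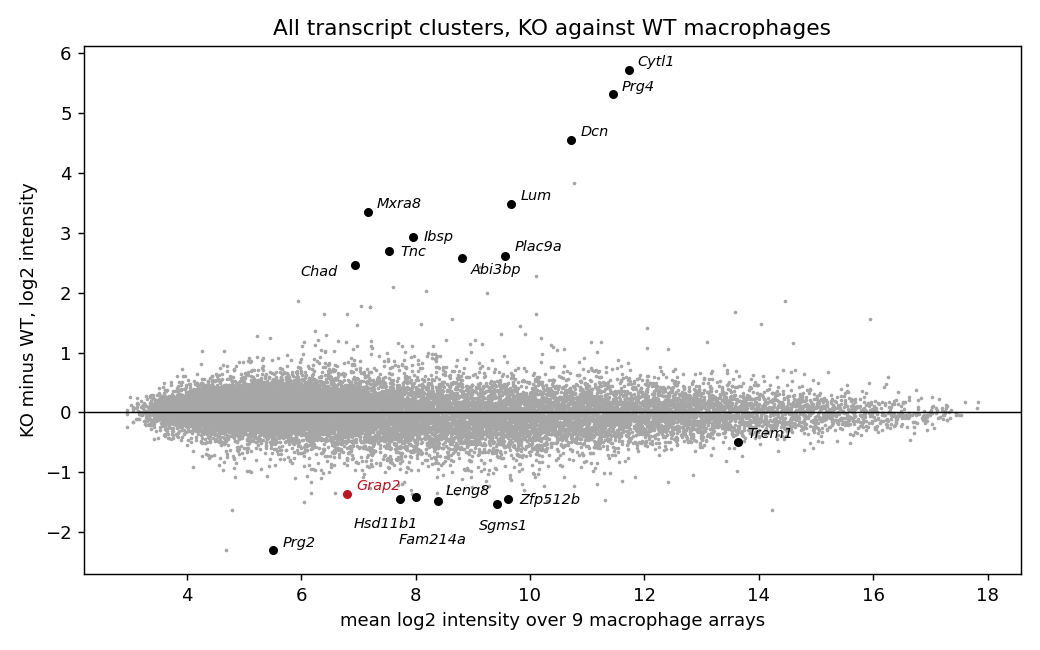
Each grey point is 1 of 22103 transcript clusters, placed by its mean log2 intensity over the 9 macrophage arrays and by the KO minus WT difference in log2 intensity. Grap2 (red, -1.35) is the only cluster that passed the test, and the black points are the other named genes furthest from 0, with the connective tissue genes Cytl1, Prg4 and Dcn above 4, together with Trem1 at -0.49.

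Grap2 fell in KO macrophages. It encodes GADS, an adaptor of the GRB2 family that links LAT to SLP-76 in T cells and is also found in cells of the myeloid lineage. WT arrays were at 7.85, 7.67 and 7.59, and KO arrays at 5.97, 6.43, 6.27, 6.20, 6.57 and 6.64. Each KO array was lower than each WT array, and the spread within a group (SD of 0.13 in WT and 0.25 in KO) was small beside the difference of -1.35 ± 0.21 (adjusted p = 0.0107). The 3 WT macrophage arrays were higher than every other array of the series: the neutrophil arrays lay between 5.34 and 6.69 and the microglia arrays between 4.89 and 5.71. The change with genotype was -0.41 in neutrophils and -0.03 in microglia. It differed from that in neutrophils by -0.94 ± 0.29 (adjusted p = 0.0456). Against microglia the difference was -1.32 ± 0.27, and its adjusted p of 0.555 did not pass over all clusters. The call rested on few WT arrays: without WT array 1 the difference was -1.28 (adjusted p = 0.211) and without WT array 2 it was -1.37 (adjusted p = 0.0684). With the replicate number as a block in a fit on the macrophage arrays alone it was -1.48 (adjusted p = 0.885). In that fit the KO arrays without a WT array of the same number added nothing to the difference.

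No other adaptor of antigen receptor signalling passed. Of 23 measured members of that list 13 were higher and 10 lower, with a median of 0.05, and Grap2 was the only one of the 724 measured genes on any of the 43 lists to pass. Blnk, the adaptor that carries signals from SYK in B cells and macrophages, was at 10.25, 9.83 and 11.28 in WT and between 10.63 and 11.85 in KO arrays, with a difference of 0.72 ± 0.36. Skap2, which couples integrins to the actin skeleton, was between 14.87 and 15.11 in all 9 arrays.

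Because GADS is best known from T cells, markers of T and natural killer (NK) cells are given beside it. Of 18 measured, 8 were higher and 10 lower in KO, none passed, and the median was -0.12, or 0.097 without WT array 1. The list mean was 6.27 in WT array 1 and 5.37 and 5.40 in WT arrays 2 and 3, and it lay between 5.37 and 5.45 in the KO arrays. WT array 1 was therefore the only one with a raised list mean. The lowest difference in the list was that of Gzma, a granzyme of cytotoxic cells, at -2.29 ± 0.71 (adjusted p = 0.897), and it came from that array, at 10.45, against 3.92 and 4.26 in the other WT arrays and 3.67 to 4.33 in KO. Among genes singled out after their values were seen, the NK receptors Klrb1c and Ncr1 also had their highest values in WT array 1, at 8.63 and 6.68. The T cell receptor subunit Cd3e lay between 4.73 and 5.33 in all 9 arrays. Klrd1, the brightest of the list, lay between 11.54 and 11.68 in WT and between 10.38 and 11.89 in KO arrays, and Icos, a costimulator of T cells, had the most positive difference at 0.44 ± 0.31. Grap2 was at 7.67 and 7.59 in WT arrays 2 and 3, where the list mean was close to the KO values. Whether the content of T or NK cells bears on the Grap2 values was not tested.

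The most positive differences belonged mainly to connective tissue and cartilage genes. The 10 named genes whose KO arrays all lay above the WT arrays with the most positive differences were Cytl1, Prg4, Dcn, Lum, Mxra8, Ibsp, Tnc, Plac9a, Abi3bp and Chad. None passed in the fit on 30 arrays. Cytl1, a secreted protein of cartilage, was at 7.26, 5.39 and 11.10 in WT arrays, and between 12.70 and 14.66 in KO arrays with a median of 13.72. Its groups did not overlap, and the difference was 5.71 ± 1.26 (adjusted p = 0.344). WT array 3 was nearest to the KO arrays and WT array 2 furthest from them.

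Prg4, the joint lubricant lubricin, was at 7.68, 5.65 and 10.40 in WT and at 12.81, 13.03, 12.59, 13.17, 13.73 and 13.97 in KO arrays, a difference of 5.31 ± 1.12 (adjusted p = 0.309). Dcn, the collagen-binding proteoglycan decorin, was at 6.62, 6.77 and 9.68 in WT arrays, and between 11.40 and 12.96 in KO arrays with a median of 12.26, a difference of 4.55 ± 1.02 (adjusted p = 0.376). Lum, the related proteoglycan lumican, was at 6.95, 5.98 and 9.12 in WT and between 9.76 and 11.87 in KO arrays, a difference of 3.48 ± 1.02. In these 3 genes WT array 3 again held the highest WT value and no KO array reached down to it. Mxra8, a membrane protein of fibroblasts and chondrocytes, differed by 3.35 ± 0.90, Ibsp, a bone matrix sialoprotein, by 2.93 ± 1.01, and Tnc, the matrix glycoprotein tenascin C, by 2.69 ± 0.83. Plac9a differed by 2.61 ± 0.85, Abi3bp, a matrix protein of connective tissue, by 2.58 ± 0.84, and Chad, the cartilage protein chondroadherin, by 2.46 ± 0.83. Sparc, a matrix glycoprotein that microglia also make, was at 7.03, 7.04 and 10.60 in WT and between 10.55 and 12.72 in KO arrays, a difference of 3.83 ± 0.88 (adjusted p = 0.376), and here KO array 3 overlapped WT array 3.

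Over a list of fibroblast, cartilage and connective tissue markers, 13 of 13 measured members were higher in KO, and the median difference was 0.61, beside 0.03 over all clusters. None of the 13 passed in the fit on 30 arrays, and in 7 of them all KO arrays lay above all WT arrays, as in 1.88% of all clusters. Nothing is read from these counts, from the list's median and means or from its place among the 43 lists. These genes' values were known when the list was chosen. The list mean was 5.90, 5.83 and 6.46 in WT and between 7.05 and 7.82 in KO arrays. It was the only one of the 43 lists whose KO and WT means did not overlap. The WT macrophage arrays had the lowest list means of the 30 arrays. Microglia arrays lay between 6.48 and 8.23 and neutrophil arrays between 6.57 and 11.00, so the KO macrophage arrays lay within both ranges. The difference between KO and WT macrophages was not spread evenly over the list. Dcn had the most positive difference, Wif1, a secreted WNT inhibitor, differed by 2.02 ± 0.87, and Col1a1, a chain of type I collagen, was the lowest at 0.11 ± 0.20. Leaving out WT array 1, 2 or 3 gave a median of 0.55, 0.71 or 0.64.

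**Figure D3:**
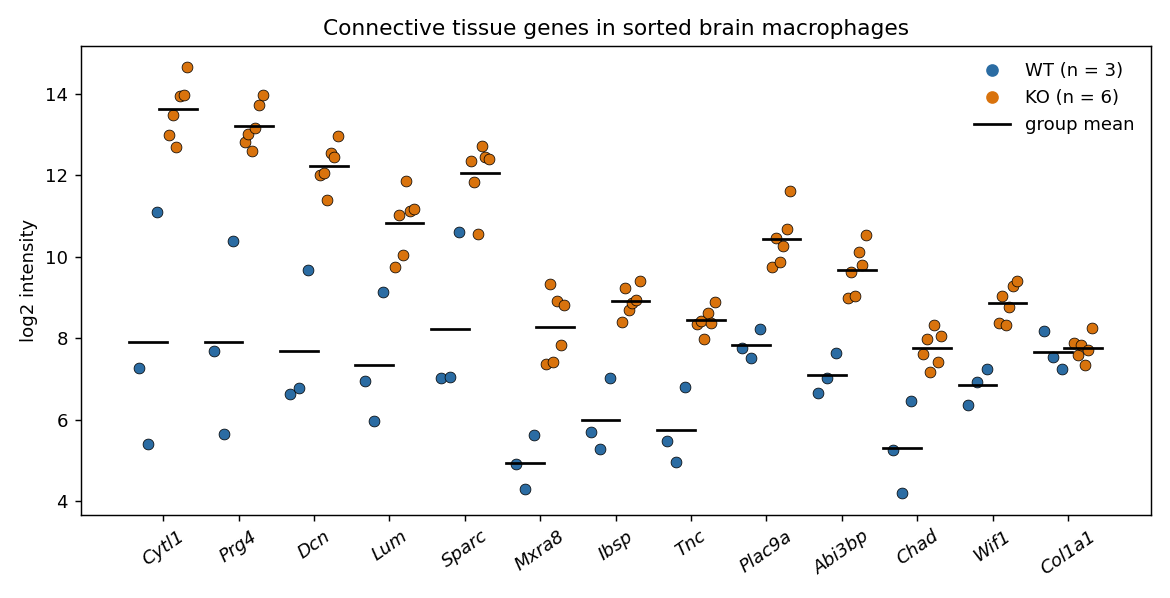
Log2 intensity of 13 connective tissue genes in each macrophage array, WT (3, blue) and KO (6, orange), with black lines at the group means. The KO arrays lie above the WT arrays for every gene drawn except Sparc, where 1 KO array meets the highest WT array, and Col1a1, where the groups overlap. All genes but Sparc, Wif1 and Col1a1 were chosen for groups that do not overlap, so their separation was fixed by that choice.

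These genes varied widely in the other cells. Cytl1 lay between 13.56 and 17.62 in WT neutrophils and between 10.44 and 14.81 in KO neutrophils, and between 8.55 and 14.38 in WT and 9.44 and 14.63 in KO microglia. The list mean was highest in WT neutrophil array 4, at 11.00, while WT neutrophil arrays 1 to 3 were at 7.47 to 8.34. Without that array the adjusted p in macrophages was 0.147 for Cytl1 and 0.114 for Prg4, Dcn and Mxra8, and the part of that array in the result beyond this was not tested. A fit on the 9 macrophage arrays alone, which takes its spread from these arrays, passed 9 clusters, 0.0407% of those tested. They were Grap2, lower (adjusted p = 0.0337), and 8 higher: Prg4 (0.0381), Mxra8 (0.0347), Tnc (0.0337), Ibsp (0.0337), Dcn (0.0337), Wif1 (0.0347), Plac9a (0.0347) and Abi3bp (0.0337). That count rested on single arrays: it was 0 without WT array 1, WT array 2, or KO array 1, 2, 4 or 5, 4 without KO array 6 and 19 without WT array 3.

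The change in these genes ran the other way in neutrophils, and that difference passed. Cytl1 differed by -2.79 between KO and WT neutrophils, and the change in macrophages minus that in neutrophils was 8.50 (adjusted p = 0.00526). Prg4 gave 8.03 (adjusted p = 0.00365), Dcn 7.50 (0.00316), Lum 6.23 (0.00926) and Mxra8 5.91 (0.00650). Without WT neutrophil array 4 they were 7.60, 7.08, 6.42, 4.97 and 4.53, with adjusted p of 0.0116, 0.00755, 0.00570, 0.0175 and 0.00658. In microglia the differences between genotypes were small, at 0.25 for Cytl1, 0.33 for Prg4 and 0.21 for Dcn. The change in macrophages minus that in microglia did not pass for any of them.

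**Figure D4:**
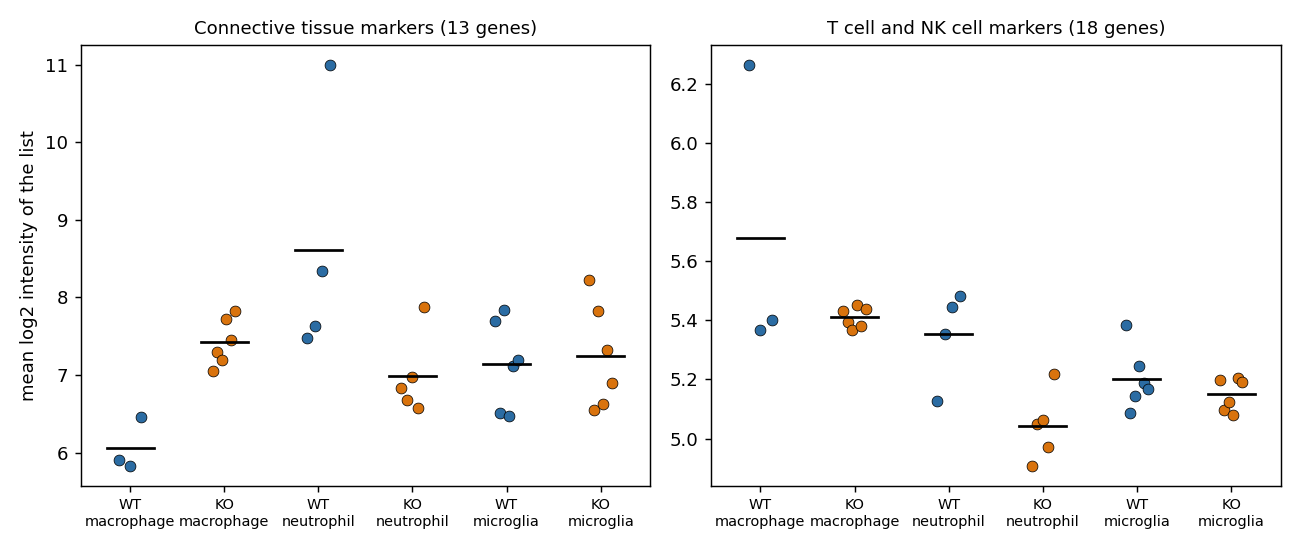
Mean log2 intensity per array of 13 connective tissue markers (left) and of 18 T and NK cell markers (right) in the 6 groups of the series, WT in blue and KO in orange, with black lines at the group means. On the left, a list chosen with its genes' values known, the KO macrophage arrays (7.05 to 7.82) lie above the WT macrophage arrays (5.83 to 6.46). These WT macrophage arrays are the lowest of all arrays on the left. WT macrophage array 1 (6.27) lies above all other arrays on the right.

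The most negative differences, apart from Grap2, did not pass. Prg2, the major basic protein of eosinophil granules, was at 10.16, 5.11 and 5.86 in WT and between 4.31 and 5.01 in KO arrays, a difference of -2.30 ± 0.54 (adjusted p = 0.410). The groups did not overlap, but most of the difference lay in WT array 1. Of 14 measured markers of mast cells, basophils and eosinophils 8 were higher and 6 lower in KO, with a median of 0.08. Sgms1, which makes sphingomyelin, was at 10.53, 10.67 and 10.12 in WT and between 7.67 and 9.92 in KO arrays, a difference of -1.53 ± 0.43. Hsd11b1, which regenerates active glucocorticoid inside cells, was at 9.01, 9.56 and 7.51 in WT and between 6.73 and 7.50 in KO arrays, a difference of -1.44 ± 0.49. Its lowest WT value was almost level with the highest KO value.

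Serpinb10, a serine protease inhibitor of myeloid cells, was at 11.45, 10.73 and 10.08 in WT and between 8.58 and 10.01 in KO arrays, a difference of -1.29 ± 0.32 (adjusted p = 0.500). Leng8 differed by -1.47 ± 0.60, with WT array 1 at 10.87 and the other 2 WT arrays at 8.56 and 8.71. Zfp512b, a zinc finger protein, was at 11.49, 10.14 and 10.11 in WT and between 8.16 and 9.74 in KO arrays, a difference of -1.43 ± 0.45. Fam214a differed by -1.40 ± 0.34 (adjusted p = 0.429) and Pcnx, a pecanex homolog, by -1.22 ± 0.45. For Leng8, Zfp512b, Fam214a and Pcnx WT array 1 held the highest value of all 9 arrays.

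No inflammatory cytokine passed. Of 19 measured, 13 were lower and 6 higher, and the median was -0.12. The list mean was 8.34, 8.41 and 8.48 in WT and between 7.87 and 8.65 in KO arrays, which overlapped. Il1a, an alarmin of the interleukin 1 family, was at 9.31, 10.61 and 9.56 in WT and at 8.20, 7.80, 10.61, 8.45, 8.02 and 8.40 in KO arrays. Its difference was -1.25 ± 0.63 (adjusted p = 0.998). In 5 of 6 KO arrays it was below the lowest WT value, and KO array 3 was level with the highest WT value. Il1b, the brightest cytokine, was at 15.82, 14.48 and 15.16 in WT and between 14.58 and 15.33 in KO arrays, a difference of -0.10 ± 0.45. Il1rn, the antagonist of the interleukin 1 receptor, had the most positive difference at 0.76 ± 0.40, with WT arrays at 12.76, 10.53 and 12.04 and KO arrays between 11.52 and 13.09. WT array 2 carried most of it: the difference was 0.14 without that array and 1.25 without WT array 1.

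No chemokine passed. Of 23 measured, 14 were higher and 9 lower, with a median of 0.06 that became -0.047 without WT array 1. Ccl8, a monocyte chemoattractant, was at 5.34, 6.00 and 6.68 in WT and at 6.23, 9.61, 9.34, 6.68, 7.28 and 5.67 in KO arrays, a difference of 1.46 ± 0.65. The high values were those of KO arrays 2 and 3, and the groups overlapped. Ccl4, an attractant of monocytes and lymphocytes, was at 9.85, 10.99 and 11.55 in WT and between 8.72 and 10.99 in KO arrays, a difference of -1.07 ± 0.44. Pf4, a platelet chemokine that macrophages also make, was at 14.56 in WT array 1, against 16.81 and 16.19 in the other WT arrays and 15.86 to 17.20 in KO arrays. Its difference of 0.60 ± 0.66 became -0.047 without WT array 1.

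NF-kB subunits, regulators and target genes were lower in 20 of 23 measured members, with a median of -0.17. None passed, and the list mean of 11.44, 11.24 and 11.39 in WT lay within the KO range of 10.82 to 11.56. The lowest was Tnfaip3, the A20 enzyme that ends NF-kB signalling and is itself an NF-kB target. It was at 11.42, 12.76 and 12.94 in WT and at 10.17, 9.98, 13.37, 12.37, 11.25 and 10.28 in KO arrays, a difference of -1.14 ± 0.67. KO array 3 had the highest value of all 9 arrays and KO array 2 the lowest, so the KO spread was wider than the difference. Icam1, an adhesion molecule, was the highest at 0.16 ± 0.51, and Bcl2a1b, a survival factor of myeloid cells, lay between 16.26 and 16.75 in all 9 arrays. Over the brighter clusters as a whole 53.3% of differences were negative, with a median of -0.02. Without WT array 1, 2 or 3 the list median was -0.13, -0.27 or -0.18.

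Toll-like receptor genes, the pathway that TREM1 is known to amplify, had 8 of 19 members higher and 11 lower and a median of -0.09, and none passed. The median was 0.066 without WT array 1 and -0.13 without WT array 2. Ticam1, the adaptor TRIF, had the most positive difference at 0.35 ± 0.19. Ticam2, the adaptor TRAM, had the most negative at -0.68 ± 0.24, with WT arrays at 6.52, 5.84 and 7.04 and KO arrays between 5.60 and 5.93. Tlr7, an endosomal sensor of single-stranded RNA, was at 15.63, 15.55 and 15.08 in WT and between 14.68 and 15.37 in KO arrays. Inflammasome and pyroptosis genes were lower in 12 of 14, with a median of -0.14, but the median was 0.07 without WT array 1. Nlrp3, the sensor that drives interleukin 1 release, was at 12.79, 11.33 and 11.39 in WT and between 10.23 and 12.45 in KO arrays, a difference of -0.70 ± 0.45. Pycard, the inflammasome adaptor ASC, differed by -0.09 ± 0.26, and Nlrp1b, another sensor, by 0.20 ± 0.32, which became -0.24 without WT array 2.

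Of the type I interferon response genes 18 of 25 were higher in KO, with a median of 0.17, and none passed. The median was 0.30 without WT array 3, and -0.013 with the replicate number as a block in the fit on the macrophage arrays alone. In that block fit the KO arrays without a WT array of the same number added nothing to the differences. WT array 2 had the lowest list mean, 8.96, against 9.57 and 9.78 in WT arrays 1 and 3 and 9.29 to 9.96 in KO arrays. Usp18, which removes the ubiquitin-like protein ISG15, was at 10.66, 10.12 and 11.47 in WT and between 10.52 and 11.89 in KO arrays, a difference of 0.67 ± 0.46. Mx1, an antiviral GTPase, went against the list at -0.53 ± 0.31, and Ifi204, a DNA sensor, lay between 15.08 and 15.49 in all 9 arrays. MHC class II presentation genes were lower in 13 of 15, with a median of -0.18, the lowest of the 43 lists. H2-Oa, a chain of the H2-O regulator of peptide loading, was at 10.45, 10.00 and 11.70 in WT and between 8.74 and 10.95 in KO arrays, a difference of -0.65 ± 0.43. Ifi30, a lysosomal reductase for antigen processing, differed by 0.06 ± 0.17. The list mean was 12.94, 12.32 and 12.90 in WT and between 12.11 and 12.80 in KO arrays, so WT array 2 lay among the KO arrays. Without WT array 2 the median was -0.39.

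**Figure D5:**
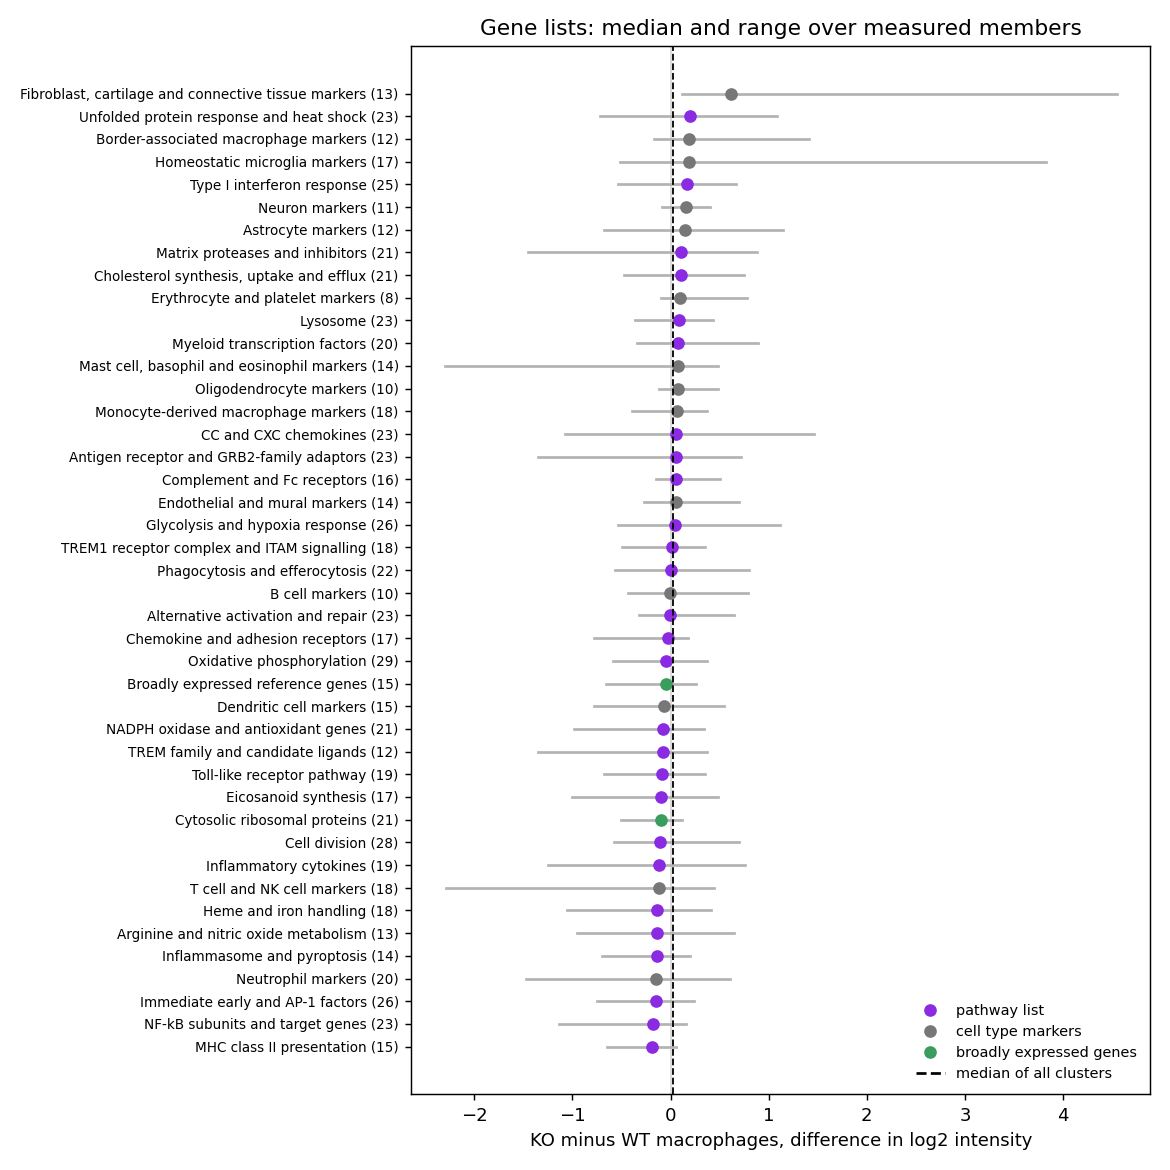
Median KO minus WT difference in log2 intensity of each of 43 gene lists (points, with the number of measured genes in parentheses), with grey lines from the lowest to the highest member, purple for pathways, grey for cell type markers and green for broadly expressed genes. The dashed line is the median of all clusters, 0.03, and 41 of the 43 medians lie within 0.2 of 0. The connective tissue markers, chosen with their values known, are furthest out at 0.61.

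The list medians rested on few WT arrays. Leaving out 1 WT array turned the sign of the median in 25 of the 43 lists.

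Genes of repair and debris clearance were evenly split. In the alternative activation and repair list 11 were higher and 12 lower, with a median of 0.00. Mrc1, the mannose receptor, was at 11.39, 12.33 and 13.01 in WT and between 12.18 and 13.38 in KO arrays, a difference of 0.65 ± 0.62. Il10, an anti-inflammatory cytokine, differed by -0.32 ± 0.35, and Fn1, fibronectin, lay between 16.87 and 17.18 in all 9 arrays. Of 22 phagocytosis and efferocytosis genes 12 were higher and 10 lower, with a median of 0.01. Gas6, the ligand that bridges dying cells to the receptors AXL and MERTK, was at 5.51 in WT array 1, at 8.11 and 8.62 in WT arrays 2 and 3 and between 7.41 and 9.37 in KO arrays. Its difference of 0.80 ± 0.59 became -0.15 without WT array 1. Olr1, a scavenger receptor for oxidised lipoprotein, differed by -0.56 ± 0.47, and Rac1, a GTPase of engulfment, lay between 16.21 and 16.54 in all 9 arrays.

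In arginine metabolism 5 of 13 genes were higher and 8 lower, with a median of -0.13 that became 0.16 without WT array 2 and -0.37 without WT array 3. Slc7a2, a transporter of arginine, was at 5.20, 5.73 and 4.86 in WT and between 3.82 and 4.77 in KO arrays, without overlap, a difference of -0.96 ± 0.23 (adjusted p = 0.448). Arg1, the enzyme that turns arginine into ornithine, was at 14.85 in WT array 1, at 16.30 and 15.83 in WT arrays 2 and 3 and between 15.83 and 16.18 in KO arrays, so that its difference of 0.33 ± 0.73 became -0.076 without WT array 1. Ddah1, which degrades inhibitors of nitric oxide synthase, differed by 0.65 ± 0.38. Among matrix proteases and inhibitors 12 were higher and 9 lower, with a median of 0.11 that became -0.0064 without WT array 1 and 0.029 without WT array 2. Mmp12, the macrophage elastase, was at 13.31, 12.39 and 11.17 in WT and at 10.77, 11.60, 10.56, 10.65, 11.38 and 10.03 in KO arrays, a difference of -1.46 ± 0.93, and WT array 3 lay among the KO arrays. Mmp13, a collagenase, was at 6.62, 6.42 and 5.99 in WT and between 6.86 and 7.92 in KO arrays, without overlap, a difference of 0.88 ± 0.49. Adam8, a sheddase of leukocytes, differed by 0.16 ± 0.39.

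The unfolded protein response and heat shock list had the highest median of the 27 pathway lists, 0.20, with 16 of 23 members higher and 7 lower and none passing. Its mean was 11.10, 11.13 and 11.63 in WT and between 11.35 and 11.62 in KO arrays, so WT array 3 was above all KO arrays. Hsph1, a heat shock chaperone, was at 9.32, 9.17 and 10.55 in WT and between 9.83 and 11.75 in KO arrays, a difference of 1.08 ± 0.47. Hsp90b1, a chaperone of the endoplasmic reticulum, differed by 0.17 ± 0.28, and Asns, asparagine synthetase, by -0.72 ± 0.54. Of 26 glycolysis and hypoxia genes 16 were higher and 10 lower, with a median of 0.05 and the most positive difference in Hk1, a hexokinase, at 1.12 ± 0.53. Cytosolic ribosomal protein genes were lower in 18 of 21, with a median of -0.10, and heme and iron genes in 14 of 18, with a median of -0.13.

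Transcription factors of the myeloid lineage had a median of 0.08, with 12 of 20 higher. Maf, a factor of resident and repair-type macrophages, was at 7.32, 7.80 and 8.14 in WT and between 8.04 and 8.91 in KO arrays, overlapping in 1 KO array, a difference of 0.89 ± 0.28 (adjusted p = 0.897). Spi1, which encodes PU.1, lay between 15.31 and 16.12 in all 9 arrays, and Irf1, an interferon regulatory factor, differed by -0.34 ± 0.32. Immediate early genes were lower in 16 of 26, with a median of -0.15 that became 0.058 without WT array 3 and -0.25 without WT array 2. They varied between arrays of 1 genotype: Egr1, which is induced within minutes of a stimulus, was at 11.29, 11.36 and 12.14 in WT and at 10.43, 10.78, 14.86, 12.74, 10.92 and 11.29 in KO arrays. KO array 3, with the highest Egr1, also had the highest values of Il1a and Tnfaip3 among the KO arrays. Egr2 differed by -0.74 ± 0.40 and Dusp1, a MAP kinase phosphatase, by -0.11 ± 0.16.

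Markers of other cell types the gate could hold had list means that overlapped between the genotypes, apart from the connective tissue genes. Dendritic cell markers had a median difference of -0.06 that became 0.055 without WT array 3 and -0.21 without WT array 2. The 20 measured neutrophil markers had a mean of 7.68 to 8.42 in WT and 7.19 to 8.08 in KO arrays, with a median difference of -0.15 that became 0.15 without WT array 2 and -0.29 without WT array 3. S100a8, the partner of S100a9 in calprotectin, was at 11.07, 12.66 and 10.13 in WT and between 6.73 and 11.49 in KO arrays, a difference of -1.47 ± 1.01. Ngp, a granule protein, differed by 0.61 ± 1.34, and Csf3r, the receptor for granulocyte colony-stimulating factor, by 0.27 ± 0.24. Homeostatic microglia markers had a mean of 8.65 to 9.42 in WT and 9.12 to 9.63 in KO arrays. Border-associated macrophage markers had a mean of 10.37 in WT array 1, against 11.66 and 11.27 in the other WT and 11.10 to 11.69 in KO arrays. Cbr2, a carbonyl reductase of these cells, was at 8.17 in WT array 1, at 12.44 and 12.71 in WT arrays 2 and 3 and between 11.18 and 13.23 in KO arrays. Its difference of 1.41 ± 0.75 became -0.056 without that array. Ms4a7, another gene of these cells, differed by 0.34 ± 0.39, and Cd209f, a lectin, by -0.17 ± 0.21. Among markers of the macrophages themselves, Lgals3, galectin 3, was lowest in WT array 1 at 15.38, against 16.78 to 17.11 in the other 8 arrays, and Ly6c2, a surface protein of inflammatory monocytes, differed by -0.39 ± 0.46.

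The last comparison asked whether the change with genotype in macrophages differed from that in the other cells. Against neutrophils 1518 clusters passed, 6.87% of those tested, 555 with a more positive and 963 with a more negative change in macrophages. With each array centred on its median the split was 283 and 1324. In 1418 of the 1518 (93.4%) the change with genotype was larger in neutrophils than in macrophages. The connective tissue genes Cytl1, Prg4, Dcn, Lum and Mxra8 were among the other 100, with changes of 5.71, 5.31, 4.55, 3.48 and 3.35 in macrophages. The genes that follow had a more negative change in macrophages. Ddx18, an RNA helicase, differed by -0.40 ± 0.66 between genotypes in macrophages and by 3.31 in neutrophils, a difference of -3.71 (adjusted p = 0.0150). Metap1d, a mitochondrial aminopeptidase, differed by -1.35 in macrophages and 2.14 in neutrophils (-3.49, adjusted p = 0.00248), Tmem229b, a membrane protein, by -0.17 and 3.23 (-3.40, adjusted p = 0.00219), and Slc37a2, a sugar phosphate transporter, by -0.23 and 3.14 (-3.37, adjusted p = 0.0158). Mmp12 differed by -1.46 in macrophages and 2.81 in neutrophils, and the difference of -4.27 had an adjusted p of 0.0410, which was 0.0665 without WT neutrophil array 4. Trem2 differed by 0.37 in macrophages and 3.03 in neutrophils (-2.66, adjusted p = 0.00299). In the neutrophil arrays too, a different mix of cells and a different RNA level per cell cannot be told apart. For Trem1 itself the change was -0.49 in macrophages and -1.22 in neutrophils, and the difference of 0.73 ± 0.60 did not pass (adjusted p = 0.455). Without WT macrophage array 3 the count was 786. Against microglia no cluster passed (0%) in limma, and 761 had an unadjusted p under 0.05. The smallest adjusted p was 0.555, and Grap2 was among the clusters that had it.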

How the data were processed

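Transcripts were measured with Affymetrix Clariom HT mouse arrays, from 0.6 to 0.8 ng of RNA of integrity above 7.5, per the labels' protocols. The deposited values were intensities made by the authors with RMA (background correction, normalization between arrays, summary per cluster), per the submitters' processing notes; its version and which arrays were normalized together are not given in the sources used here. The intensities were linear, from 5.62 to 438297, for 22103 clusters, and their log2 was taken without pseudocount or filter. Of the clusters 19508 had 1 symbol. No background level per array was used; the few arrays limit the precision. limma 3.58.1 in R 4.3.3 fitted 1 mean per group to 30 arrays (24 residual degrees of freedom), and was tested on simulated data. Adjusted p-values are Benjamini-Hochberg over all clusters. The comparison, its 43 gene lists (724 of 800 genes measured) and the tests were chosen with earlier results of these data known.

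Genes with values are Trem1 with Trem2 and Trem3, those that passed, the 10 most positive and 10 most negative differences without overlap (at least 1 group mean of 6.69), per described list the highest, lowest and brightest member, and the 5 most different from neutrophils in each direction. Clone-named models were left out, and the brightest cluster of a gene was used. Alternatives were 2 quantile normalizations, median centring, array weights, a variance trend, a filter on dim clusters, 1 cluster per gene, macrophage arrays alone, the replicate block and each macrophage array left out. Leaving out WT neutrophil 4, and single arrays from the macrophage fit, were added after seeing the data. Figures used matplotlib 3.10.9.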

Additional observations from a re-analysis of the deposited data

Results flagged for a closer look

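Single KO macrophage arrays lay far from the other 5 in 8 genes and 3 list means, among 130 groups of 6 tested, and chance gives such a gap in about 1 in 20 groups. KO array 4 had a high Tyrobp of 16.65 (others 16.25 to 16.39), a low Tlr7 of 14.68 (others 15.27 to 15.37) and a high Ly6c2 of 15.22 (others 14.12 to 14.32), and its mean for cholesterol genes was 10.65 (others 10.42 to 10.50). KO array 2 had a low Skap2 of 14.87 (others 14.96 to 15.01), a low Irf1 of 8.84 (others 9.45 to 9.79) and a low S100a8 of 6.73 (others 9.82 to 11.49), and its mean for neutrophil markers was 7.19 (others 7.80 to 8.08). KO array 3 had an Il1a of 10.61 (others 7.80 to 8.45). In KO array 1 Egr2 was at 7.78 (others 9.26 to 9.56) and the mean of matrix proteases and inhibitors at 9.67 (others 9.85 to 9.94).

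For 28 of the 87 genes given with values, the change with genotype in macrophages differed from that in neutrophils (limma, adjusted p under 0.05). Over all clusters the share was 6.87%. Nothing is read from the count of 28, because the 87 include the 5 genes in each direction that were chosen for passing this test. More positive in macrophages were the connective tissue genes Cytl1 (8.50), Prg4 (8.03), Dcn (7.50), Lum (6.23), Mxra8 (5.91), Ibsp (5.52), Sparc (5.03), Plac9a (4.97), Abi3bp (4.90), Wif1 (4.84), Chad (4.69) and Tnc (4.66), with Mmp13 (2.85) and Il1rn (1.82). More negative were Mmp12 (-4.27), Ddx18 (-3.71), Metap1d (-3.49), Tmem229b (-3.40), Slc37a2 (-3.37), Zfp512b (-2.94), Trem2 (-2.66), Pcnx (-2.30), Ifi30 (-1.96), Blnk (-1.89), Fam214a (-1.82), Ms4a7 (-1.74), Hsp90b1 (-1.51) and Grap2 (-0.94). Values in parentheses are the change in macrophages minus that in neutrophils, on the log2 scale. Where the difference comes mainly from a change in neutrophils, as for Ifi30 (0.06 in macrophages, 2.02 in neutrophils), the macrophage value is near 0.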

How the results depend on the processing

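The replicate numbers in the labels did not pair the macrophage arrays: deviations of same-numbered WT and KO arrays from their group means correlated at 0.135, -0.005 and -0.087. With the number as a replicate block, 0 clusters passed in the fit on the macrophage arrays alone and 994 differed from neutrophils over all arrays, where 1518 did without it. Grap2 was then -1.48 in the macrophage fit (adjusted p = 0.885), without a call. In that macrophage fit the KO arrays without a WT array of the same number added nothing to the differences. Without the block, the fit on the macrophage arrays alone passed 9 clusters in place of 1. Leaving out 1 macrophage array gave 0 to 9 clusters in KO against WT macrophages, 0 to 19 in the fit on the macrophage arrays alone, and 786 to 1460 against neutrophils. Grap2 ranged from -1.41 to -1.28 and Trem1 from -0.68 to -0.36 over these, and Grap2 lost its call without WT array 1 and without WT array 2. Against microglia the count was 0 under every alternative run.

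Of 87 genes given with values, 19 changed sign in 26 of 1737 gene and setting pairs, and in each of these the difference did not pass. The range over the fits that left out 1 macrophage array stands in parentheses. Without WT array 1 the sign turned for Il1b (-0.43 to 0.24), Pf4 (-0.047 to 1.08), Gas6 (-0.15 to 1.40), Rac1 (-0.048 to 0.047), Arg1 (-0.076 to 0.65), Adam8 (-0.090 to 0.34), Lgals3 (-0.19 to 0.67) and Cbr2 (-0.056 to 2.21). Without WT array 2 the sign turned for Icam1 (-0.025 to 0.41), Nlrp1b (-0.24 to 0.63), Ifi30 (-0.019 to 0.12) and Spi1 (-0.031 to 0.31). Without WT array 3 it turned for Il10 (-0.82 to 0.049), Dusp1 (-0.21 to 0.015), Col1a1 (-0.10 to 0.38) and Tmem229b (-0.39 to 0.060). Egr1 ran from -0.37 to 0.52 and turned without KO array 3, Tmem229b turned also without KO array 1, and Rac1 also without KO arrays 3, 5 and 6. Rac1 was 0.055 and 0.047 under quantile normalization over all arrays and within cell types. With the replicate block over all arrays Pycard was 0.015 and Slc37a2 0.045, and in the macrophage fit Adam8 was -0.067. Outside Grap2, calls were gained in 12 pairs, by connective tissue genes and by Prg2 without WT array 2 (-3.26, adjusted p = 0.0210). The medians of 43 lists moved by more than 1 SD between KO arrays in 56 of 860 pairs. The median of the connective tissue markers stayed between 0.47 and 0.77 and that of the NF-kB list between -0.27 and -0.13, while the inflammasome list ran from -0.21 to 0.07. The cause was not tested. With 3 WT arrays, each decides much of the WT mean.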

Other observations

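Connective tissue genes followed the replicate number in microglia, where differences between the genotypes were small. Cytl1 was at 14.15, 8.55, 14.38, 9.84, 12.12 and 12.36 in WT microglia arrays 1 to 6 and at 14.63, 9.97, 13.70, 9.44, 13.15 and 12.02 in KO microglia arrays 1 to 6. Arrays 2 and 4 were the lowest of both genotypes, and arrays 1 and 3 the highest. In WT macrophage arrays 1 to 3 Cytl1 was at 7.26, 5.39 and 11.10, so array 2 was the lowest and array 3 the highest, as in WT microglia arrays 1 to 3. In KO macrophage arrays with the same numbers Cytl1 lay between 12.70 and 13.48. The mean of the connective tissue markers was 7.05, 7.29 and 7.19 in these KO arrays, so array 1 was the lowest there. Whether the replicate number bears on the macrophage values was not tested. What the numbers stand for was not stated in the labels.

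Markers of other brain cells were measured in every macrophage array. Neuron markers had a mean of 5.08 to 5.71 over the 9 arrays, below the median cluster level of 6.69. Of 11 measured members 10 had a positive KO minus WT difference, with a median of 0.16, and none passed the test. Over all clusters 54.6% of differences were positive. Oligodendrocyte markers had a mean of 4.91 to 5.31 and astrocyte markers of 5.66 to 6.23. WT arrays 1 and 2 had the 2 lowest means of the 9 arrays in each of these 3 lists. Endothelial and mural markers had a mean of 7.04 to 7.36, and B cell markers of 5.26 to 5.66.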
